A study of Mus musculus with 15 samples.

Results

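The expression of 10 genes that carry or control β-catenin signalling was described: Ctnnb1, which encodes β-catenin, the transcription factor genes Tcf7, Tcf7l1 and Tcf7l2, the coactivator genes Crebbp, Ep300 and Bcl9, and the destruction complex genes Apc, Axin1 and Gsk3b. They were picked by symbol. The array annotation listed 28 probe sets for 9 of these 10 genes, out of 18193 genes measured, and none under the symbol Tcf7, which was not analysed here. Mammospheres, which are spheres of mammary tumour cells grown without attachment, had been profiled on 15 mouse expression arrays in 5 groups of 3. All came from tumours of FVB/N mice with the genotype WAPCre-DNbcatn;HGF, were grown for 7 days and were then exposed for 24 h to PHA, to ICG, to PHA+ICG or to the vehicle DMSO. PHA, ICG and 1 DMSO group carry the title code JAH, and PHA+ICG and the other DMSO group carry the code JHO. Each treatment was therefore read against the DMSO arrays with its own code.

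The study asked how inhibitors of the Wnt and MET pathways, alone or combined, change these spheres. The labels do not say which agent acts on which pathway. By the usual reading of the names, PHA stands for an inhibitor of the receptor tyrosine kinase MET and ICG for a compound that binds CBP, the product of Crebbp. No doses are given. All groups share both transgenic changes and there is no group without them, so Ctnnb1 signal could come from native and altered alleles alike. The WAP promoter is active in milk-secreting mammary epithelium, so Cre activity in other cells of the tumour is not implied by the genotype. Nothing in the labels says whether the arrays of a group came from separate animals or cultures, and the p-values measure only the spread between arrays.

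Without a Wnt signal, APC, AXIN1 and the kinase GSK3β hold β-catenin in a complex that marks it for degradation. Stabilised β-catenin enters the nucleus and binds TCF proteins, where BCL9, CBP and p300 help it to activate transcription. The pathway maintains mammary progenitor cells, and its activity is set largely at the level of β-catenin protein, which these arrays do not measure.

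Promoter sequences, given 5′ to 3′ as the 250 bases before the listed start in RefSeq (GRCm38.p6), are shown for the 3 members that rose with ICG, because they changed in the same comparison, and for Tcf7l2, which fell. Capitals mark the letters TGACG, the core of a CREB binding site, read on either strand (CGTCA on the other), or a TCF/LEF word (CTTTGAA, or the same letters with AT, TA or TT at the end, both strands). The last line holds the only TCF/LEF word found before any listed start of these genes.
Gsk3b (chr16:38088751-38089000, plus strand): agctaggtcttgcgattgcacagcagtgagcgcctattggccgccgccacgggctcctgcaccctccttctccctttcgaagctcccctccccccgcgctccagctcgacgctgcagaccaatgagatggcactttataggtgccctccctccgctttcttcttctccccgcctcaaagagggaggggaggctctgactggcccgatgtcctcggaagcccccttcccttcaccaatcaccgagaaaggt
Ep300 (chr15:81585964-81586213, plus strand): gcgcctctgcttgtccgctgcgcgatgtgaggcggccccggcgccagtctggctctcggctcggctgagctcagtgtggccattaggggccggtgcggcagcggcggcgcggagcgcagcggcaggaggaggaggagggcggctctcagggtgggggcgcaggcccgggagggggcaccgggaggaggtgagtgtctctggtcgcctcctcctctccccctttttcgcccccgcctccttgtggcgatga
Ctnnb1 (chr9:120933150-120933399, plus strand): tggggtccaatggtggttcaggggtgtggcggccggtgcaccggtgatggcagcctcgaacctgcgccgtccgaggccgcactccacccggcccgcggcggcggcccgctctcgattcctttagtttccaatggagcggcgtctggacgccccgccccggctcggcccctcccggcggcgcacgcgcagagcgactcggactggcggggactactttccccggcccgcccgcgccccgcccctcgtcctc
Tcf7l2 (chr19:55741560-55741809, plus strand): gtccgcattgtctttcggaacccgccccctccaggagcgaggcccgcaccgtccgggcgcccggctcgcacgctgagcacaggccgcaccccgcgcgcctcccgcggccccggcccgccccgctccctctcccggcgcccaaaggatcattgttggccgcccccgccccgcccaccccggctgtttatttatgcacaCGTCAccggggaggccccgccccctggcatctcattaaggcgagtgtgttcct
Tcf7l2, site before its second listed start (chr19:55895284-55895313, plus strand): aagtcggcaaacaaaatatcaggCTTTGTT

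Of the 10 genes, 8 had promoter entries, which gave 11 windows because some genes have 2 listed starts. A TCF/LEF word stood in 1 of the 11 windows, against 14.8% of 32851 promoters of the same length. It lies 14 bases before the second start listed for Tcf7l2. The TGACG letters stood in 2 of the 11 windows, 1 of Tcf7l2 and 1 of the second Ctnnb1 start, against 17.8% of all promoters, and the full palindrome TGACGTCA was in 0 of them, against 1.55%. The Gsk3b, Ep300 and Ctnnb1 windows printed above hold none of these words. G and C made up 62.0% of the Gsk3b window, 73.2% of the Ep300 window and 74.8% of the Ctnnb1 window, against a median of 52.4% over all promoters. These matches describe letters and not occupied sites.

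Values below are deposited log2 signals of the probe set with the highest mean for each gene. They are comparable for 1 gene between arrays of the same set, and not between genes. Whether both sets were normalized together is not given. Models were fitted with limma within the JAH or the JHO arrays, and a change counts as called where its p, adjusted over all 18193 genes by Benjamini and Hochberg, was under 0.05. Errors after a fold change are standard errors. Marker genes of cell types were read against the level of odorant receptor probe sets, the measure of dim signal. All 8 luminal epithelial markers, such as the keratin genes Krt8 and Krt18, were above it in at least 1 group. All 11 measured fibroblast markers and all 12 leukocyte markers were too, so these levels do not single out an epithelial origin. Of the basal markers 1 of 6 was dim, and of the endothelial markers 4 of 6 were. These are bulk samples, and fewer cells of a type and less RNA per cell cannot be told apart.

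ICG changed 5 of the 9 measured genes. Gsk3b, Ep300 and Ctnnb1 rose, by 1.48-fold, 1.30-fold and 1.21-fold, and Tcf7l2 and Bcl9 fell, to 0.835 and 0.852 of the DMSO level. The share called, 55.6%, stands beside 26.9% of all genes called with ICG, 11.9% higher and 15% lower. None of the 9 genes was dim at its highest probe set. With dim genes left out of the fit, 39.3% of genes were called with ICG, 16.8% with PHA and 2.9% with PHA+ICG. The ICG and DMSO arrays of 5 members did not overlap, as was true of 40.6% of all genes. PHA changed 1 of 9 genes (11.1%), Bcl9, which fell, beside 10.2% of all genes called and 7.07% called lower. PHA+ICG changed 0 of 9 genes by limma, beside 2.02% of all genes, although 1 member, Gsk3b, had an unadjusted p under 0.05. The median log2 change of the 9 genes was 0.02 for PHA, 0.03 for ICG and 0.03 for the combination, against 0.02, 0.03 and 0.00 over all genes.

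**Figure D1:**
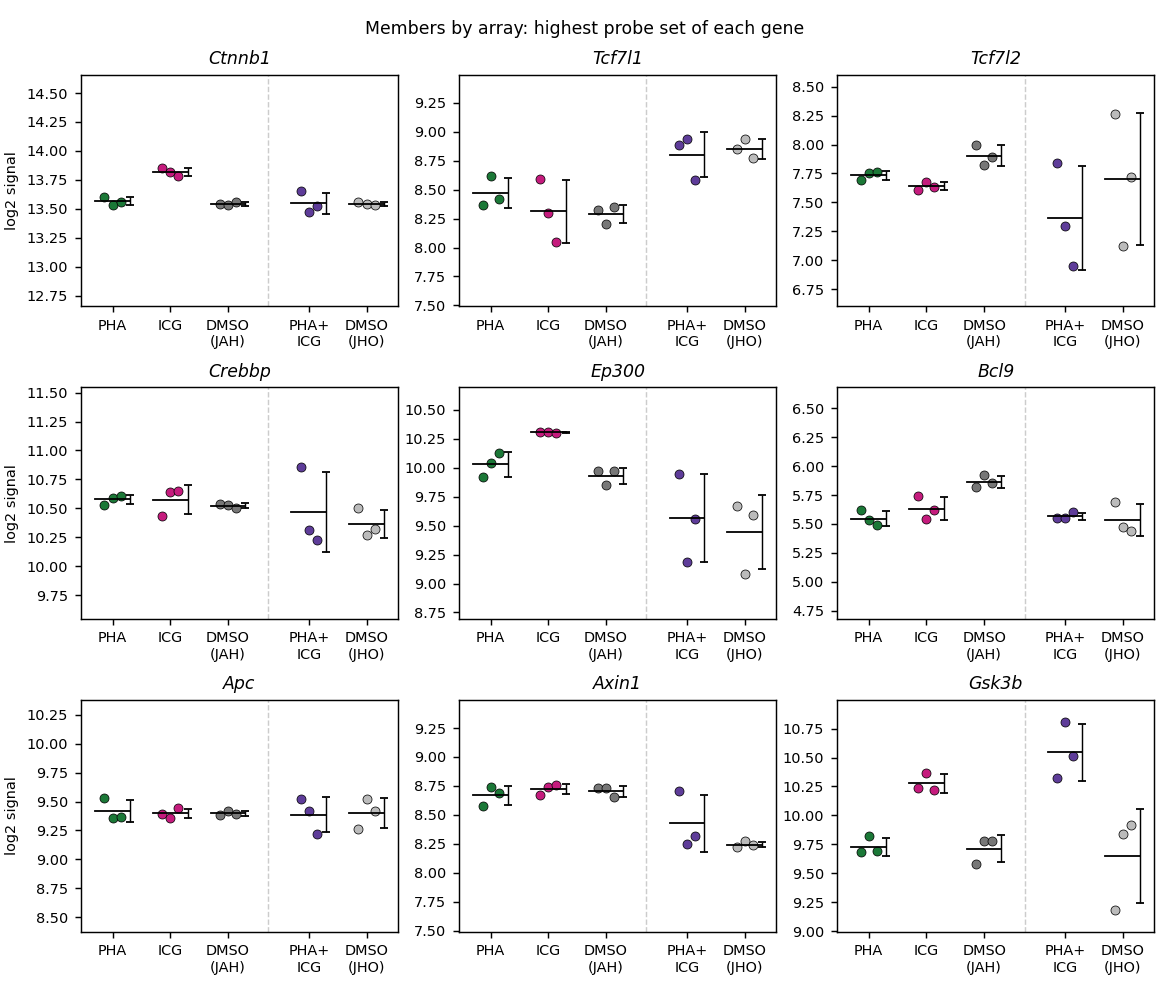
Log2 signal of each gene on each array (y axis), with the 3 arrays of a group as points, the group mean as a line and the SD as a bar. PHA, ICG and their DMSO arrays (JAH) stand left of the dashed line, PHA+ICG and its DMSO arrays (JHO) right of it; every panel spans the same number of log2 units. The 3 ICG arrays of Gsk3b, Ep300 and Ctnnb1 lie above all 3 JAH DMSO arrays.

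Gsk3b encodes the kinase that phosphorylates β-catenin for degradation. Its signal was 10.24, 10.37 and 10.22 on the ICG arrays and 9.68, 9.82 and 9.69 on the PHA arrays, against 9.58, 9.78 and 9.78 on the DMSO arrays of the same set. All ICG arrays were above all DMSO and PHA arrays, and the PHA and DMSO arrays overlapped. The change with ICG was 0.56 ± 0.08 on the log2 scale (95% interval 0.39 to 0.74, adjusted p = 0.000593 by limma). With PHA it was 0.02 ± 0.08 (interval -0.16 to 0.19, adjusted p = 0.918).

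In the JHO set, Gsk3b read 10.32, 10.81 and 10.51 on the PHA+ICG arrays, against 9.18, 9.84 and 9.92 on the DMSO arrays. The groups did not overlap, as was true of 18.3% of all genes in this comparison. DMSO replicate 1 was the lowest array. The fitted change was 0.90 ± 0.24, a 1.86-fold difference (interval 0.35 to 1.44, adjusted p = 0.118 by limma), and 0.66 without DMSO replicate 1 (adjusted p = 0.207). Same-numbered arrays of the JHO groups deviated together, with correlations of 0.61, 0.36 and 0.28 for the 3 pairs. Some arrays with different numbers were about as alike, at 0.35 for DMSO 3 with PHA+ICG 2 and 0.24 for DMSO 2 with PHA+ICG 3, whereas replicate 1 of either group correlated at -0.51 to -0.31 with replicates 2 and 3 of the other. With the replicate number as a block, the adjusted p for Gsk3b was 0.00991, and 7.93% of all genes were called.

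The 6 Gsk3b probe sets were read separately. With ICG all 6 changes were above 0, between 0.17 and 0.56, and 3 of them were called, beside 16.5% of all 45037 probe sets. With PHA+ICG all 6 were again above 0, between 0.12 and 0.90, and none was called, beside 1.25% of all probe sets. With PHA, 4 of the 6 were below 0, and 1 of these was called, 1439931_at at -0.46 ± 0.10 (adjusted p = 0.0305 by limma over all probe sets, beside 4.73% called). The signal of that probe set averaged 7.03 ± 0.10 on PHA arrays and 7.49 ± 0.20 on DMSO arrays (SD, n = 3 each), a difference that the probe set with the highest signal did not show.

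Ctnnb1 encodes β-catenin itself. It read 13.85, 13.82 and 13.78 on ICG arrays and 13.60, 13.53 and 13.56 on PHA arrays, against 13.54, 13.53 and 13.56 on DMSO arrays. The ICG arrays were above all others, and the PHA arrays overlapped DMSO. The change with ICG was 0.28 ± 0.05 (interval 0.15 to 0.40, adjusted p = 0.00434 by limma), and with PHA 0.02 ± 0.05 (interval -0.10 to 0.14, adjusted p = 0.873). In the JHO set it read 13.65, 13.47 and 13.52 with PHA+ICG, against 13.56, 13.54 and 13.53 with DMSO. These groups overlapped, and the change was 0.00 ± 0.14 (interval -0.33 to 0.34).

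The other 2 Ctnnb1 probe sets did not move alike with ICG, at 0.23 ± 0.13 for 1450008_a_at and -0.19 ± 0.14 for 1430533_a_at, and neither was called. With the mean of its 3 probe sets in place of the highest, the ICG change of Ctnnb1 was 0.10 with an adjusted p of 0.414 by limma.

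Among the TCF genes, Tcf7l2, which encodes a TCF factor that activates or represses targets depending on whether β-catenin is bound, was the member called. Its signal was 7.61, 7.68 and 7.63 on ICG arrays and 7.69, 7.75 and 7.76 on PHA arrays, against 8.00, 7.82 and 7.89 on DMSO arrays. Both treated groups lay below DMSO without overlap. The change was -0.26 ± 0.06 with ICG (adjusted p = 0.0135 by limma), while the PHA value of -0.17 ± 0.06 missed the threshold (adjusted p = 0.135). ICG and PHA differed by 0.09 ± 0.06 (PHA minus ICG, interval -0.05 to 0.24) at this probe set, which was not called, whereas the probe set 1429427_s_at was called at 0.39 ± 0.10 (adjusted p = 0.0210 over all probe sets).

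All 4 Tcf7l2 probe sets were below 0 with ICG, from -0.42 to -0.09, and 2 were called. The mean of the 4 changed by -0.25 with ICG (adjusted p = 0.0700 by limma). In the JHO set the highest probe set ranged widely, at 7.84, 7.30 and 6.95 with PHA+ICG and 8.26, 7.12 and 7.72 with DMSO. The groups overlapped, and the change was -0.34 ± 0.32 (interval -1.08 to 0.41).

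Tcf7l1, a TCF factor best known as a repressor in stem cells, was not called in any comparison at its highest probe set. It read 8.37, 8.62 and 8.42 on PHA arrays and 8.59, 8.30 and 8.05 on ICG arrays, against 8.32, 8.20 and 8.35 on DMSO arrays. The PHA arrays were above the DMSO arrays without overlap, one of 3 members for which the PHA and DMSO groups did not overlap, as was true of 31.6% of all genes. The changes were 0.18 ± 0.12 with PHA (interval -0.09 to 0.46) and 0.03 ± 0.12 with ICG (interval -0.25 to 0.30). With PHA+ICG it changed by -0.05 ± 0.16. The second Tcf7l1 probe set, 1450117_at, changed by 0.20 ± 0.09 with PHA, -0.30 ± 0.09 with ICG and -0.49 ± 0.32 with the combination, none of them called. Between the compounds it was higher with PHA, at 8.05 ± 0.02 with PHA and 7.54 ± 0.15 with ICG (SD, n = 3 each), a called difference of 0.50 ± 0.09 (adjusted p = 0.00419 by limma over all probe sets).

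Crebbp and Ep300 encode related histone acetyltransferases, and of the pair Ep300 was called with ICG. Ep300 was measured by 1 probe set only. Ep300, which encodes p300, read 10.31, 10.31 and 10.30 on ICG arrays and 9.92, 10.04 and 10.13 on PHA arrays, against 9.97, 9.85 and 9.97 on DMSO arrays. The ICG arrays were the highest of the set and lay within a narrow range. The change was 0.38 ± 0.07 with ICG (interval 0.23 to 0.53, adjusted p = 0.00261 by limma) and 0.10 ± 0.07 with PHA (adjusted p = 0.404). In the JHO set Ep300 read 9.95, 9.19 and 9.56 with PHA+ICG, against 9.67, 9.08 and 9.59 with DMSO, which overlapped.

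Crebbp, which encodes CBP, read 10.43, 10.64 and 10.65 on ICG arrays and 10.53, 10.59 and 10.61 on PHA arrays, against 10.54, 10.53 and 10.50 on DMSO arrays. The ICG arrays stood on both sides of DMSO. The change was 0.05 ± 0.07 with ICG (interval -0.11 to 0.20, adjusted p = 0.680) and 0.05 ± 0.07 with PHA (interval -0.11 to 0.21), by limma. With PHA+ICG it was 0.11 ± 0.20 (interval -0.36 to 0.57), from 10.86, 10.31 and 10.23 with PHA+ICG against 10.50, 10.27 and 10.32 with DMSO. None of the 4 Crebbp probe sets was called with ICG, and their changes spanned -0.39 to 0.18. Whether the ICG changes of Ep300 and Crebbp differ from each other was not tested.

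Bcl9, which encodes the adaptor between β-catenin and the Pygopus proteins, fell with either single agent. It read 5.62, 5.53 and 5.49 on PHA arrays and 5.74, 5.54 and 5.62 on ICG arrays, against 5.82, 5.92 and 5.85 on DMSO arrays. Neither treated group overlapped DMSO. The change was -0.32 ± 0.07 with PHA (adjusted p = 0.0191 by limma) and -0.23 ± 0.07 with ICG (adjusted p = 0.0336). With PHA+ICG it read 5.55, 5.55 and 5.60, against 5.69, 5.47 and 5.44 with DMSO, and changed by 0.03 ± 0.15.

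These Bcl9 signals are near the dim level, whose upper limit was 5.15 to 5.54 over the groups. The second Bcl9 probe set, 1451574_at, changed by -0.22 ± 0.07 with PHA and by 0.17 ± 0.07 with ICG, and was called with neither. The mean of both changed by -0.03 with ICG (adjusted p = 0.764 by limma). The Bcl9 call with PHA was lost without PHA replicate 2 or 3 or without DMSO replicate 2 or 3 (adjusted p 0.0508 to 0.0727), and the ICG call was lost without ICG or DMSO replicate 2 or 3 (adjusted p 0.0712 to 0.113), by limma.

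**Figure D2:**
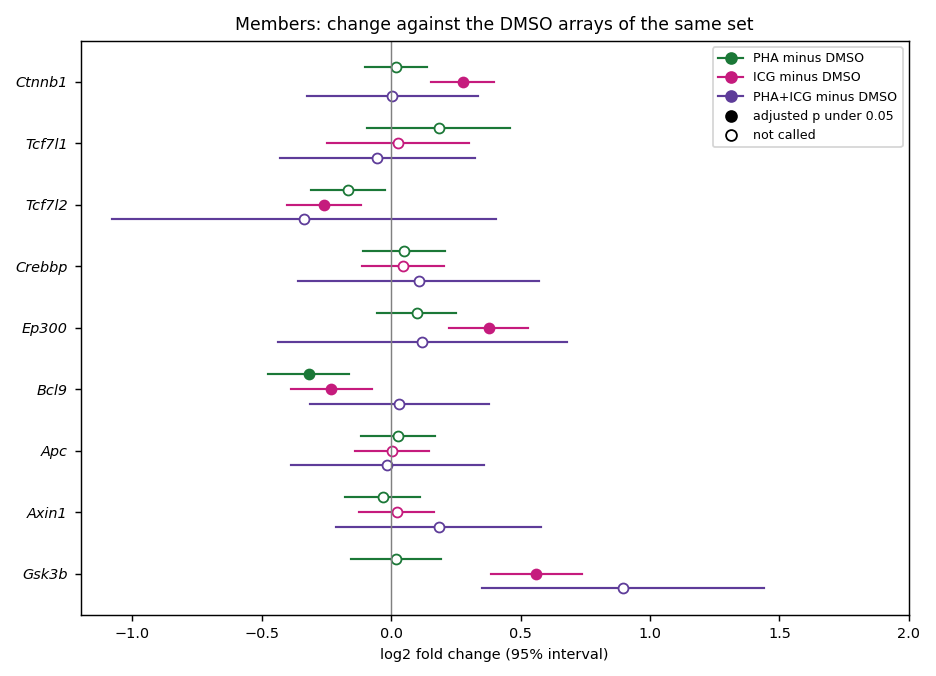
Log2 fold change of each gene (x axis, with 95% intervals) for each of the 3 treatments, relative to DMSO of the same set; filled points had an adjusted p under 0.05. The Gsk3b values with ICG and PHA+ICG, 0.56 and 0.90, lie farthest to the right, and the PHA+ICG intervals are the widest.

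The scaffold genes Apc and Axin1 were not called at their highest probe sets. Apc, whose product holds the complex together, ranged from 9.36 to 9.53 on PHA arrays and 9.36 to 9.44 on ICG arrays, against 9.38 to 9.42 on DMSO arrays. Axin1, the limiting scaffold of the complex, ranged from 8.58 to 8.74 with PHA and 8.67 to 8.76 with ICG, against 8.65 to 8.73 with DMSO. The ICG changes were 0.00 ± 0.06 for Apc (interval -0.14 to 0.15) and 0.02 ± 0.06 for Axin1 (interval -0.12 to 0.17). With PHA+ICG, Apc changed by -0.01 ± 0.16 and Axin1 by 0.18 ± 0.17.

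One of the 4 Apc probe sets, 1435543_at, rose with ICG by 0.30 ± 0.07 (adjusted p = 0.0191 by limma over all probe sets), at 8.19 ± 0.08 with ICG against 7.88 ± 0.05 with DMSO (SD, n = 3 each). The other 3 were not called. Over all 28 probe sets of the members, ICG gave 6 higher and 2 lower calls, beside 16.5% of all probe sets called. PHA gave 0 higher and 2 lower, beside 4.73%, and PHA+ICG none, beside 1.25%. Of the 28, 2 were dim in every group.

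**Figure D3:**
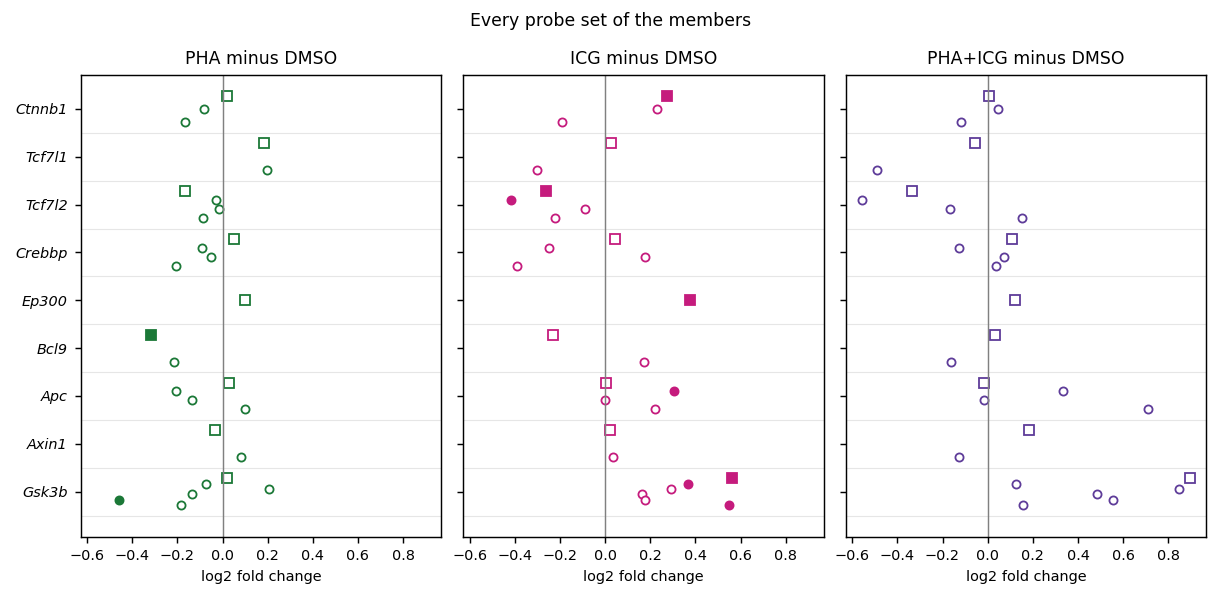
Log2 fold change (x axis) of all 28 probe sets against DMSO of the same set, by gene. Squares are the probe set with the highest mean, circles the others, and filled symbols had an adjusted p under 0.05 over all 45037 probe sets. The 6 Gsk3b probe sets all lie right of 0 with ICG and with PHA+ICG, whereas the 3 of Ctnnb1 lie on both sides with ICG; Bcl9 with ICG is open here at an adjusted p of 0.0646.

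PHA and ICG were compared directly within the fit of the 9 JAH arrays, so the DMSO arrays also enter the estimate of spread. Of the 9 genes, 3 (33.3%) were lower with PHA than with ICG, beside 27.1% of all genes called in either direction and 13.4% called lower. With dim genes left out of the fit, 40.4% of genes were called in either direction. The PHA and ICG arrays of 4 members did not overlap, as was true of 41.7% of all genes. Gsk3b differed by -0.54 ± 0.08 (adjusted p = 0.000654 by limma), Ep300 by -0.28 ± 0.07 (adjusted p = 0.0123) and Ctnnb1 by -0.26 ± 0.05 (adjusted p = 0.00582). Bcl9, which fell with both, differed by -0.09 ± 0.07 between them at its highest probe set (interval -0.24 to 0.07), whereas its second probe set, dim in every group, was called at -0.39 ± 0.07 (adjusted p = 0.00304 over all probe sets). As the mean of both, Bcl9 was called at -0.24 (adjusted p = 0.0125), and Tcf7l1 at 0.33 (adjusted p = 0.0191). Crebbp differed by 0.00 ± 0.07 (interval -0.16 to 0.16). Apc differed by 0.02 ± 0.06 at its highest probe set, which was not called. Its probe set 1435543_at was called at -0.51 ± 0.07 (adjusted p = 0.000980 by limma over all probe sets). Over the 28 probe sets, 2 were higher and 8 lower with PHA than with ICG, beside 17.3% of all probe sets called.

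The PHA+ICG change was next set against the single-agent changes, each taken relative to its own DMSO arrays. Differences between the sets in culture, handling, normalization and agent cannot be told apart here. No member was called for the PHA+ICG change minus the ICG change (0.385% of all genes called), minus the PHA change (2.74%) or minus the sum of both (0.72%). Of the 9 members, 0, 1 and 1 had an unadjusted p under 0.05 in these 3 contrasts by limma. For Gsk3b the PHA+ICG change exceeded the PHA change by 0.88 ± 0.24 (interval 0.37 to 1.39, adjusted p = 0.0674), and with the replicate block the adjusted p was 0.0124, beside 5.27% of all genes. It exceeded the ICG change by 0.34 ± 0.24 (interval -0.18 to 0.85, adjusted p = 0.940) and the sum by 0.32 ± 0.27 (interval -0.26 to 0.90). Of the 28 probe sets, 1 was called for the PHA+ICG change minus the PHA change, beside 1.88% of all probe sets. That was Gsk3b 1439931_at, at 1.01 ± 0.22 (adjusted p = 0.0269 by limma over all probe sets). Its change was -0.46 with PHA and 0.55 with PHA+ICG. For Bcl9 the PHA+ICG change lay 0.58 ± 0.20 above the sum of the single changes (adjusted p = 0.280 by limma).

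The arrays of the JHO set spread 2.22 times as widely as those of the JAH set by the median SD. With 1 spread pooled over all 15 arrays, 0 of 9 members were called with ICG (adjusted p = 0.0699 for Gsk3b and 0.0663 for Ctnnb1) and Gsk3b was called with PHA+ICG (adjusted p = 0.00297).

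Another 70 pathway genes, in 5 lists, were read in the same fits. Among 16 genes of the destruction complex and its regulators, ICG raised 2 and lowered 0: Ppp2ca, the catalytic subunit of the phosphatase PP2A, at 0.23 ± 0.06, and Fbxw11, a substrate receptor of the ubiquitin ligase for β-catenin, at 0.20 ± 0.06. As the mean of its probe sets, Fbxw11 was at -0.08 and not called, and its call held in 6 of 14 alternatives. PHA and PHA+ICG changed 0 of these 16. The 12.5% called with ICG stands beside 26.9% of all genes. Axin2, a feedback inhibitor that is itself a direct Wnt target, was not called with PHA (-0.03), ICG (-0.17) or PHA+ICG (0.08). The median change of the list with ICG was 0.01, against 0.03 over all genes.

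Among 16 nuclear partners and coactivators, ICG raised 4 and lowered 2. The acetyltransferase genes Kat2a and Kat5 fell, with changes of -0.37 ± 0.06 and -0.34 ± 0.07. Med12, of the Mediator kinase module, rose by 0.36 ± 0.07 and Tbl1xr1, a β-catenin binding exchange factor, by 0.26 ± 0.07. PHA lowered 2 of the 16, the arginine methyltransferase gene Carm1 at -0.34 ± 0.06 and Med12 at -0.26 ± 0.07. PHA+ICG changed 0 of them. The shares called were 37.5% with ICG and 12.5% with PHA, beside 26.9% and 10.2% of all genes. With dim genes left out of the fit, the shares of genes called were 39.3% and 16.8%. Of the 16, 1 was dim. The call of Med12 with PHA held in 5 of 14 alternatives.

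Among 14 nuclear corepressors and inhibitors, ICG raised 1 and lowered 4. Ctnnbip1, whose product blocks β-catenin from binding TCF, had a change of -0.54 ± 0.06 (adjusted p = 0.000135 by limma), the histone deacetylase gene Hdac1 -0.52 ± 0.06 and the Groucho corepressor gene Tle2 -0.44 ± 0.09. Tle3, of the same Groucho family, rose by 0.41 ± 0.06. As the mean of its probe sets Tle3 was at 0.23 and not called (adjusted p = 0.0619 by limma). Tle2 also fell with PHA+ICG, at -0.90 ± 0.15, a call that was lost without PHA+ICG replicate 2 or 3 or without any 1 of the 3 DMSO arrays (adjusted p 0.0603 to 0.129 by limma). No gene of this list was called with PHA. The share of the list called with ICG was 35.7%, beside 26.9% of all genes and 39.3% with dim genes left out of the fit. With PHA+ICG it was 7.14%, beside 2.02% and 2.9%. No gene of this list was dim.

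Of 6 adhesion partners, which hold β-catenin at cell junctions, ICG raised 1, the N-cadherin gene Cdh2 at 0.36 ± 0.09, and PHA lowered 1, the plakoglobin gene Jup at -0.34 ± 0.07. Each is 16.7% of the list, beside 26.9% of all genes called with ICG and 10.2% with PHA. With dim genes left out of the fit these shares were 39.3% and 16.8%, and no adhesion partner was dim. PHA+ICG changed 0. Among 20 Wnt target genes, 6 of them dim, ICG raised 2 and lowered 3, PHA raised 0 and lowered 2, and PHA+ICG raised 0 and lowered 2. The shares called, 25% with ICG and 10% with PHA, are near the 26.9% and 10.2% of all genes. With PHA+ICG the share was 10%, beside 2.02% of all genes. Birc5, which encodes survivin and is also a gene of dividing cells, fell, at -2.98 ± 0.25 with ICG and -1.93 ± 0.15 with PHA+ICG. Nkd2, an inhibitor of Dishevelled, fell with all 3 treatments, at -0.49 ± 0.08 (PHA), -0.57 ± 0.08 (ICG) and -0.91 ± 0.18 (PHA+ICG). The PHA+ICG call of Nkd2 (adjusted p = 0.0488 by limma) held in 6 of 14 alternatives and was lost without any 1 array of either group, with adjusted p up to 0.174. Myc fell with PHA, at -0.44 ± 0.10, and rose by 0.46 ± 0.10 with ICG, and Apcdd1, a Wnt inhibitor at the cell surface, fell with ICG, at -0.71 ± 0.19. The Apcdd1 value was -0.40 as the mean of its probe sets (adjusted p = 0.0569), and its call was also lost without ICG replicate 3 or DMSO replicate 2 or 3 (adjusted p up to 0.0706). The Myc call with PHA was lost without any 1 PHA array or without DMSO replicate 1 (adjusted p up to 0.0649). Axin2 and Lef1 belong to more than 1 of these lists.

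**Figure D4:**
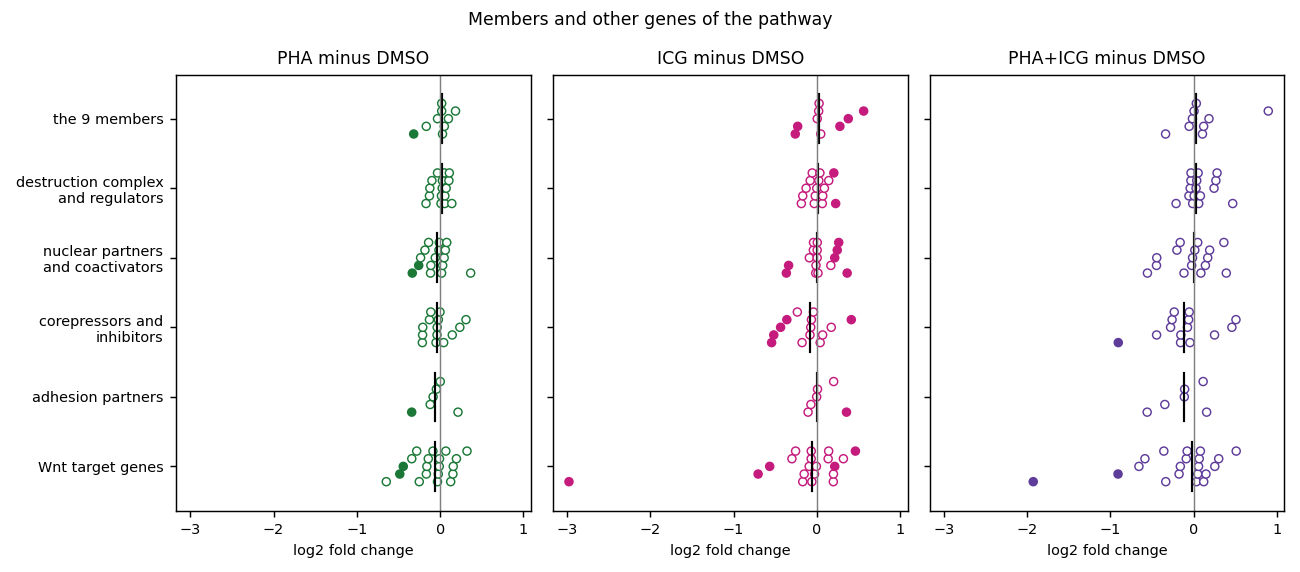
Log2 fold change (x axis) of the 9 members and of the genes of 5 pathway lists against DMSO of the same set. Each point is a gene, filled where the adjusted p was under 0.05, and black ticks are list medians. With ICG, filled points lie on both sides of 0 in the members, the nuclear partners, the corepressors and the Wnt targets; the point at -2.98 is Birc5.

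Markers of other cell types and of cell division moved in the same comparisons. Of all genes, 26.9% were called with ICG (11.9% higher and 15% lower), 10.2% with PHA (7.07% lower) and 2.02% with PHA+ICG. With ICG, 10 of 11 measured fibroblast markers, 8 of 12 leukocyte markers and all 10 markers of dividing cells fell. In the luminal list 2 of 8 rose and 2 fell, in the basal list 1 of 6 rose and 3 fell, 1 of 7 measured T cell markers rose, and 0 of 6 endothelial markers changed. With PHA, 7 of 11 fibroblast, 4 of 12 leukocyte, 5 of 6 basal, 1 of 6 endothelial and 1 of 10 dividing-cell markers fell, 2 of 8 luminal markers rose, and 0 of 7 T cell markers changed. The 14.3% of T cell markers called with ICG and the 10% of dividing-cell markers called with PHA were below the shares of all genes. The endothelial marker called with PHA, Tek, was dim. With PHA+ICG, 7 of 10 dividing-cell markers and 1 of 11 fibroblast markers fell, and none of the other marker lists had a called gene. With the replicate block, PHA+ICG lowered 8 of 12 leukocyte, 5 of 11 fibroblast, 8 of 10 dividing-cell, 2 of 8 luminal and 1 of 6 basal markers, beside 7.93% of all genes called. The T cell and endothelial lists had 0 calls with the block, whose counts in the pathway lists equalled those without it.

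The log2 of the summed fibroblast signal was 14.62 to 14.84 with ICG and 14.80 to 14.84 with PHA, against 15.10 to 15.46 with DMSO, and 15.98 to 16.27 with PHA+ICG against 16.44 to 16.67 with its DMSO. That of the dividing-cell markers was 12.18 to 12.24 with ICG and 12.71 to 12.99 with PHA, against 12.75 to 13.10 with DMSO, and 12.59 to 12.64 with PHA+ICG against 13.18 to 13.22 with its DMSO. The leukocyte sum was 15.03 to 15.10 with ICG and 15.04 to 15.15 with PHA, against 15.23 to 15.42 with DMSO. In the JHO set it was lower and spread more widely, at 10.78 to 13.42 with PHA+ICG and 11.75 to 14.19 with DMSO. Replicate 1 of both JHO groups stood apart by the leukocyte gene Ptprc, at 9.20 with PHA+ICG against 5.54 and 6.20 in the other 2 arrays, and at 10.04 with DMSO against 6.79 and 6.64. The part of these marker changes in the values of the members was not tested.

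The genes whose pattern lay nearest each called member were found by the root mean square difference over the 15 arrays, each value taken relative to DMSO of its set. For Gsk3b, whose own root mean square was 0.51, these were Tcea1, a transcription elongation factor gene, at a difference of 0.14, then Ifi202b and Hax1. The changes of Tcea1 were 0.01 (PHA), 0.56 (ICG) and 1.08 (PHA+ICG). For Ctnnb1 they were Ube2k, a ubiquitin-conjugating enzyme gene, at 0.06, then Ss18 and Fam126a, and for Ep300 Rab22a, a small GTPase gene, at 0.09, then D5Ertd579e and Arfgap2. For Tcf7l2 they were Tmem141 at 0.11, Mgat5 and Mkrn1, and for Bcl9 Safb2 at 0.09, Cgn and Snx20. Nearness here is a description of 15 arrays that share their DMSO baselines.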

How the data were processed

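Values of 45101 probe sets on 15 arrays were used as deposited by the authors, as log2 signals. The submitters' processing notes name RMA and MAS5 without versions or roles, and whether both sets were normalized together is not given in the sources used here. Controls (64) were left out. Probe sets with 1 symbol (34945) were named from the platform annotation, 932 with several symbols and 9160 with none carried no gene name, and each gene took its probe set with the highest mean, which gave 18193 genes. Linear models were fitted with limma 3.58.1 in R 4.3.3, within the 9 JAH arrays and within the 6 JHO arrays, and over all 15 arrays with each set weighted by its own spread for contrasts between sets. The threshold was 0.05 on p-values adjusted over all genes (Benjamini-Hochberg). The fit was tested on simulated data. Tables and figures used Python 3.11.15, numpy 2.4.6, pandas 2.3.3 and matplotlib 3.10.9. A probe set was dim where its mean was under the 95th percentile of 44 odorant receptor probe sets in every group. The number of arrays limits the precision.

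The labels give groups of a set the same replicate numbers. In the JHO set every same-numbered pair correlated above 0.1, so the blocked values are given beside the results they change. In the JAH set the correlations ran from -0.26 to 0.12, so the numbers were not taken as pairs.

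All 9 measured members were named in every comparison, and of each pathway list up to 4 called genes in order of size. The marker lists covered luminal, basal, fibroblast, leukocyte, T cell, endothelial and dividing cells. The members and lists were chosen with earlier results of these data known, so the counts are descriptions, and the calls and directions of genes already reported from these arrays are no independent support.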

Additional observations from a re-analysis of the deposited data

How the results depend on the processing

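Of the 27 values against DMSO, the 6 called ones kept sign and call in 63 of 84 alternatives and lost the call in 21, and none changed sign. The pooled spread, the set weights, the block, leaving out dim genes and fitting every probe set do not alter the log2 change. The sign could therefore change only in the other alternatives. Of the 21 uncalled values, 15 changed sign in some alternative, and 3 of their 294 alternatives were called, all for Gsk3b with PHA+ICG. Pooling the spread of all 15 arrays left 0 members called with PHA, 0 with ICG and 0 for PHA minus ICG, and called 1 (Gsk3b) with PHA+ICG. Weighting each set by its spread called 1 member with PHA+ICG (Gsk3b) and lost Tcf7l2 with ICG (adjusted p = 0.0875 by limma). Quantile normalization over all 15 arrays also lost Tcf7l2 with ICG, at -0.20 (adjusted p = 0.0574 by limma). With the replicate block 1 member (Gsk3b) was called with PHA+ICG and 1 for the PHA+ICG change minus the PHA change. In the JAH set the block lost Bcl9 with ICG (adjusted p = 0.0604), Med12 with PHA (0.0843) and Fbxw11 with ICG (0.0549), and changed no other call of a named gene against DMSO. The mean of all probe sets of a gene left 2 members with ICG (Ep300 and Gsk3b, at 0.38 and 0.35) and gave 5 for PHA minus ICG. Ep300 has 1 probe set, so this mean could not change its log2 change. Under it Apc for PHA minus ICG turned to -0.185 and was called, and Fbxw11 with ICG turned to -0.076. Centring each array on its median called 1 member (Gsk3b) for the PHA+ICG change minus the PHA change.

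Leaving out single arrays gave 0 to 1 members with PHA, 4 to 5 with ICG, 2 to 3 for PHA minus ICG, 0 to 0 with PHA+ICG and 0 to 1 for the PHA+ICG change minus the PHA change. That 1 was Gsk3b, without JAH DMSO replicate 1 (adjusted p = 0.0491) or PHA+ICG replicate 1 (0.0457). The other 2 contrasts between sets kept 0 members in every alternative run.

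Over all genes, 1858 were called with PHA, 4896 with ICG, 368 with PHA+ICG, 4939 for PHA minus ICG, and 70, 499 and 131 for the PHA+ICG change minus the ICG change, the PHA change and their sum. The pooled spread gave 182, 1255, 2413, 1463, 160, 860 and 78 in that order. The block gave 1202 with PHA, 1442 with PHA+ICG and 197, 958 and 284 for the last 3, and set weights gave 641 with PHA+ICG. Fitting every probe set gave 7451 with ICG, 563 with PHA+ICG, 7803 for PHA minus ICG, and 130, 848 and 198 for the last 3. Quantile normalization gave 765 for the PHA change contrast, and split PHA calls into 836 higher and 1093 lower (572 and 1286 as deposited) and PHA+ICG calls into 134 and 249 (87 and 281). Leaving out single arrays gave 1005 to 1691 with PHA, 3696 to 4756 with ICG, 56 to 389 with PHA+ICG, 3922 to 4399 for PHA minus ICG, and 1 to 144, 149 to 719 and 35 to 177 for the last 3.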

Other observations

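The DMSO arrays of the JHO and JAH sets differed in the levels of several members. Ep300 averaged 9.45 in JHO DMSO and 9.93 in JAH DMSO, and Axin1 averaged 8.24 and 8.70 in that order, whereas Tcf7l1 averaged 8.86 in JHO DMSO and 8.29 in JAH DMSO. Ctnnb1, at its highest probe set, averaged 13.54 in JHO DMSO and 13.54 in JAH DMSO. Probe sets of 1 gene did not shift alike: the Gsk3b probe sets 1437001_at and 1454958_at differed by 1.18 and -0.06 between JHO DMSO and JAH DMSO, and the Crebbp probe sets 1436983_at and 1435224_at by 1.30 and -0.17. The highest shift among the 28 probe sets was 1.43, at Apc 1420957_at. Whether these shifts come from culture, cell makeup, array handling or normalization was not tested, since each set holds only its own DMSO arrays.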
